A study of Homo sapiens with 12 samples.

Results

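The replication-dependent histone genes of A375 cells are described here in wild-type and MAPKAPK2-knockout cells with and without the bromodomain inhibitor JQ1. They were chosen by symbol, as the genes of the HIST1 to HIST4 clusters named for H1, H2A, H2B, H3 or H4. Of 86 symbols that matched, 11 numbered pseudogenes were left out, which gave 75 members among the 56609 symbols of the deposited table. The rule itself uses no measured value. Of the members, 70 are annotated as protein-coding and 5 as pseudogenes (HIST2H2BA, HIST2H2BB, HIST2H2BC, HIST2H3DP1 and HIST3H2BA), all 5 of which carry counts. By class there are 6 H1, 17 H2A, 22 H2B, 15 H3 and 15 H4 genes. By cluster there are 55 in HIST1 on chromosome 6, 15 in HIST2 and 4 in HIST3 on chromosome 1, and HIST4H4 alone on chromosome 12.

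A375 is an established human malignant melanoma cell line. There were 4 groups of 3 samples each: wild-type cells in DMSO, wild-type cells in JQ1, MAPKAPK2-knockout cells in DMSO and MAPKAPK2-knockout cells in JQ1, with JQ1 at 500 nM and 48 h of exposure in every group. JQ1 displaces BET proteins from acetylated chromatin, and MAPKAPK2 encodes the stress-activated kinase MK2, whose loss the study examined for its effect on resistance to such inhibitors. The knockout was made with CRISPR/Cas9, and the labels do not say whether it is a single clone or a pool, nor whether the replicates were separate cultures, so p-values measure the spread between these libraries. The sequenced material was total RNA depleted of ribosomal RNA, in strand-specific libraries.

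Replication-dependent histone genes supply the histones that package newly copied DNA, and their mRNAs accumulate in S phase. Unlike most other mRNAs they lack introns and usually end not in a poly(A) tail but in a short stem-loop, which is bound by SLBP. The precursor is cleaved after the stem-loop with the help of the U7 small nuclear RNP. NPAT, at the histone locus body, drives their transcription. Many copies encode the same protein, while replacement histones such as H1F0 are made throughout the cell cycle from ordinary polyadenylated mRNAs. Because no poly(A) selection was used here, mRNAs of either kind could enter the libraries.

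The stem-loop is shown first because it is the usual end of these mRNAs. It was found in the GENCODE 29 transcripts of 32 of the 75 members, each matching the 16-base consensus with no mismatch. It took 6 distinct forms, of which the most frequent was held by 17 members. The sequences below compare the H4 gene that fell most with JQ1 (HIST1H4I), 3 H4 genes that rose, and an H2A and an H2B gene with the most frequent form. Capitals mark the stem-loop, and the sequence is the sense strand of the GENCODE transcript with T for U.
HIST1H4I: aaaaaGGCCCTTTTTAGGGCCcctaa
HIST2H4A: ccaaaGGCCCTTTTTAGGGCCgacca
HIST1H4H: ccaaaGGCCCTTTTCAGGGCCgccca
HIST4H4: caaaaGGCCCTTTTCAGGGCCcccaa
HIST3H2A: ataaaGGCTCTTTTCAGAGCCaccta
HIST1H2BG: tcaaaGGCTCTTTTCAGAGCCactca

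HIST1H4I and HIST2H4A thus hold the same 16 letters, although the first fell and the second rose with JQ1 (below). The stem-loop began 34 bases after the stop codon in HIST1H4I, 36 in HIST2H4A, 42 in HIST1H4H and 34 in HIST4H4. Of the coding members without a match, 32 have models of coding bases alone, and the others (HIST1H1E, HIST1H1T, HIST1H2BA, HIST1H2BJ, HIST1H3J and HIST1H4C) have models with untranslated bases. No match says only that the letters are not in the model.

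Promoters were matched in RefSeq (GRCh38.p14) for 65 of the 75 members, as 250 bases before to 50 after the start. The letters CCAAT, searched on both strands, were in all 6 H1, 16 H2A, 18 H2B and 12 H3 promoters and in 3 of 13 H4 promoters, against 35.4% of all 27305 RefSeq promoters. The octamer ATTTGCAT was in 11 of 16 H2A and 14 of 18 H2B promoters and in none of the H1, H3 and H4 promoters, against 1.83% of all. AAACACA, the H1 box, was in all 6 H1 promoters, against 5.79% of all. TATAAA was in 43 of 65, against 12.3% of all. The 120 bases before the RefSeq start are printed for the genes with the largest fall and with a rise among H4, and for the H1 gene that was lowest in the knockout. The RefSeq start need not be that of the GENCODE model. The HIST1H4I stretch lies wholly within its 1294-base GENCODE transcript (chr6:27138588-27139881). The HIST1H4H stretch overlaps its GENCODE model (chr6:26277609-26285638) in part, and the HIST1H1A stretch lies outside its model. Capitals mark any CCAAT box or TATA box, on either strand, within the stretch printed.
HIST1H4I (chr6:27139162-27139281, plus strand): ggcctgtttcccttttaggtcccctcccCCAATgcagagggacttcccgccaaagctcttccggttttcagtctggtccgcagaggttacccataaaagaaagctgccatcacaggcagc
HIST1H4H (chr6:26285535-26285654, minus strand): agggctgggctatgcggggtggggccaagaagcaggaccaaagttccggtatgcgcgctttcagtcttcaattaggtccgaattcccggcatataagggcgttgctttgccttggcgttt
HIST1H1A (chr6:26017788-26017907, minus strand): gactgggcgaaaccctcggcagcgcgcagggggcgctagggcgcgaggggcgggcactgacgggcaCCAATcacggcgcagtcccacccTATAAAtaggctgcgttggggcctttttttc

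HIST1H4I is thus 1 of the 3 H4 genes whose RefSeq promoter holds CCAAT, and HIST1H4H is not. The CCAAT printed for HIST1H4I lies within its GENCODE transcript. These matches describe the letters only, and binding was not measured.

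The libraries held 25316899 to 34594295 estimated counts, of which the histone members took 1.57% to 1.84%. The 10 members with the most counts held 42.5% of the members' counts. On average 47 members reached 100 CPM (counts scaled to a common library size, with TMM factors) and 67 passed the low-count filter. The other 8 had at most 11 counts in any library (HIST1H1T, HIST1H2AA, HIST1H2BA, HIST1H3I, HIST1H4G, HIST1H4K, HIST1H4L and HIST3H3). HIST1H2BA, HIST1H4G and HIST1H4K were at 0 in all 12 libraries, where a count of 0 allows up to 0.0867 to 0.118 CPM depending on the library, for counting error only. MAPKAPK2 mRNA was at 89.6 ± 2.2 CPM in wild-type DMSO and 12.4 ± 1.15 CPM in knockout DMSO (SD, n = 3), so the knockout label held. Of 7 melanocyte lineage markers, SOX10 was at 437 to 563 CPM and MITF at 28.8 to 43.1 CPM in the group means, while PMEL, MLANA, TYR, DCT and TYRP1 were at most at 1.18 CPM. The keratinocyte, fibroblast, leukocyte and endothelial markers summed to at most 7.12, 13.2, 3.27 and 2.67 CPM. The third knockout JQ1 library (replicate 3) stood apart, with 14.6% of its counts in RN7SK, RN7SL1, RN7SL2 and RMRP against 9.42% to 12.3% in the other libraries. That share was 9.42% to 9.76% in wild-type DMSO, 10.6% to 11.7% in wild-type JQ1, 10.5% to 11.6% in knockout DMSO and 11% to 14.6% in knockout JQ1. Wild-type DMSO thus lay below the other groups. Its part in the results below was not tested. Without knockout JQ1 replicate 3, members called with JQ1 were 29 higher and 5 lower in wild type and 19 higher and 6 lower in the knockout. All tested genes were then 4353 higher and 4045 lower in wild type, and 3607 higher and 3840 lower in the knockout. With all libraries they were 3665 and 3522, and 3616 and 3856. That library is not in the wild-type contrast, which it enters through the shared estimate of spread.

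The submitters' processing notes name kallisto, which divides reads of near-identical transcripts by estimation. The 70 coding members encode 36 distinct proteins, and 41 members share 7 of these. The 14 H4 genes HIST1H4A to HIST1H4F, HIST1H4H to HIST1H4L, HIST2H4A, HIST2H4B and HIST4H4 encode 1 protein of 103 residues, and 10 HIST1H3 genes encode another of 136. For 8 members in 4 pairs the whole coding sequence is shared: HIST1H4J and HIST1H4K, HIST2H2AA3 and HIST2H2AA4, HIST2H3A and HIST2H3C, and HIST2H4A and HIST2H4B. HIST2H3A and HIST2H3C had identical counts in every library. Values of single members of these pairs are therefore uncertain.

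In both genotypes JQ1 raised more histone genes than it lowered. In wild-type cells 23 of 67 tested members rose and 5 fell, where 16.9% of all tested genes rose and 16.2% fell (edgeR quasi-likelihood test, adjusted p under 0.05). In knockout cells 21 rose and 6 fell, against 16.7% and 17.8% of all tested genes. The changes were small: the median log2 fold change of the members was 0.12 in either genotype, against -0.03 and -0.004 over all tested genes in wild-type and knockout cells. The called rises ran from 0.195 to 1.74 in wild type and from 0.192 to 1.88 in the knockout, and HIST2H4B was the called member at a log2 fold change of 1 or more. HIST1H2BE, with few counts, was at 0.79 (SE 0.51) and 1.16 (SE 0.56) and was not called.

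The direction of the family as a whole depended on the scaling. With library totals alone in place of TMM, the median of all tested genes moved to -0.16 in wild type and -0.12 in the knockout, and that of the members to -0.01 and 0.01. The members' calls were then 13 higher and 9 lower in wild type and 14 higher and 13 lower in the knockout, while those of all genes were 2298 higher and 5368 lower, and 2409 higher and 5250 lower. Of the rises, 13 of 23 in wild type and 14 of 21 in the knockout held under all 20 alternatives tried at the threshold of 0.05, library totals included, as did 4 of 5 and 4 of 6 falls. At a threshold of 0.01, which is not among the 20, HIST2H2BE lost its call in the knockout (0.0103).

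Summed over all 75 members, the level was 16550, 17050 and 17320 CPM in wild-type DMSO and 18620, 19260 and 17570 CPM in wild-type JQ1. In the knockout it was 16530, 16310 and 15270 CPM in DMSO and 17720, 16140 and 17880 CPM in JQ1. The wild-type groups did not overlap and the knockout groups did. The log2 ratio of the means was 0.12 in wild type and 0.105 in the knockout, and -0.006 and -0.010 with library totals alone. In bulk RNA, a change in the number of cells that make histone mRNA and a change in the amount per cell cannot be told apart.

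**Figure D1:**
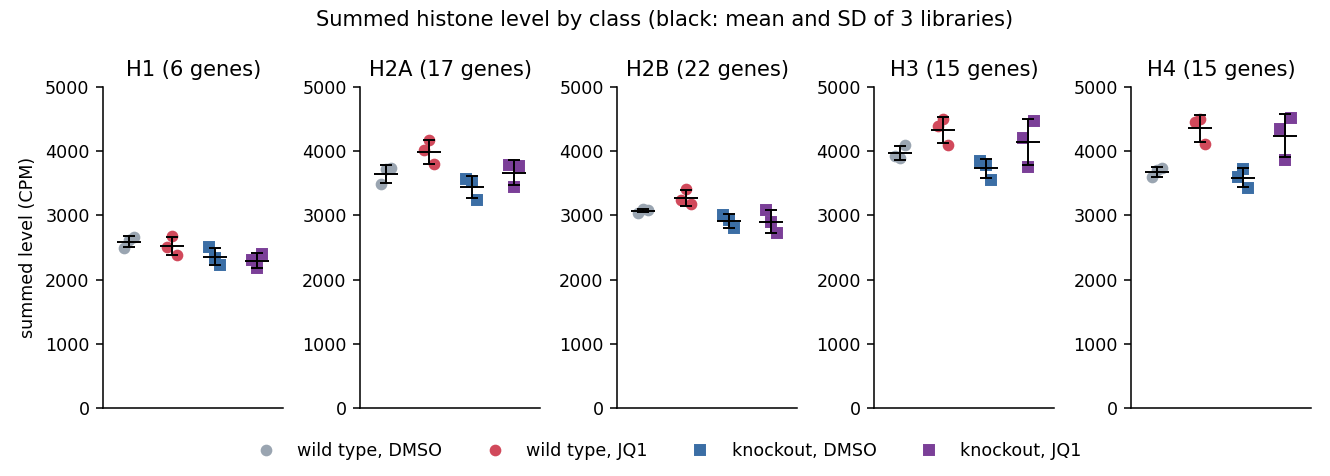
The summed level of each histone class (vertical axis, CPM from 0) is plotted for every library of the 4 groups, with black bars for the mean and SD of 3 libraries. The H4 sum is at 3593 to 3734 CPM in wild-type DMSO and 4117 to 4498 CPM in wild-type JQ1, while the H1 sums overlap between DMSO and JQ1 in each genotype.

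Of the 5 classes, H4 had the highest log2 ratio of JQ1 to DMSO sums, 0.245 in wild type and 0.242 in the knockout. Its level was 3678 ± 74.8 CPM in wild-type DMSO against 4358 ± 210 in JQ1 and 3587 ± 150 in knockout DMSO against 4242 ± 337 in JQ1 (SD, n = 3). The H4 groups did not overlap in either genotype. With the 14 genes of the shared H4 protein added into 1 row before the fit, the log2 fold change was 0.25 (SE 0.06, adjusted p 0.00424, edgeR) in wild type and 0.24 (SE 0.06, adjusted p 0.00439) in the knockout. Other shared-protein rows also rose. The row with HIST1H2BC was at 0.22 in wild type (adjusted p 0.00627) and 0.14 in the knockout (0.0709). The row with HIST1H2AG was at 0.17 and 0.16 (0.0302 and 0.044), and the HIST2H3 row at 0.21 in both (0.0372 and 0.0364). The HIST1H3, HIST1H2AB and HIST2H2AA rows were not called. These rows used TMM and were not refit with library totals alone. The H1 sum was 2593 ± 89.5 CPM against 2523 ± 145 in wild type and 2359 ± 137 against 2295 ± 115 in the knockout, with overlap in both. H2A, H2B and H3 lay between, at log2 ratios of 0.13, 0.09 and 0.12 in wild type and 0.09, -0.005 and 0.15 in the knockout.

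Histone H4 forms the core of the nucleosome with H3. Of the 12 tested H4 genes, 6 rose and 1 fell in wild type, and 7 rose and 1 fell in the knockout, although all 12 encode the same protein. These are 50% and 8.33%, and 58.3% and 8.33%, beside 16.9% and 16.2%, and 16.7% and 17.8%, of all tested genes. HIST1H4I (chr6:27138588-27139881 in GRCh38, plus strand) was at 115, 128 and 123 CPM in wild-type DMSO and at 74.0, 80.6 and 67.2 CPM in wild-type JQ1. In the knockout it was at 120, 121 and 106 CPM in DMSO and 61.8, 54.4 and 68.5 CPM in JQ1. All 6 libraries with JQ1 lay below all 6 without it. HIST1H4I fell by 0.72 on the log2 scale in wild type (SE 0.09, adjusted p 2.07e-05, edgeR) and by 0.91 in the knockout (SE 0.09, adjusted p 2.15e-06). It was the lowest of all tested members in both genotypes, and its fall held under all 20 alternatives.

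HIST1H4H (chr6:26277609-26285638, minus strand), one of the histone genes described as also giving polyadenylated mRNA, moved the other way. It was at 137, 158 and 153 CPM in wild-type DMSO and 218, 203 and 201 CPM in wild-type JQ1. Knockout libraries were at 136, 151 and 142 CPM in DMSO and 217, 195 and 203 CPM in JQ1. No JQ1 library reached down to a DMSO library. The log2 fold change was 0.47 (SE 0.07, adjusted p 6.91e-05) in wild type and 0.52 (SE 0.07, adjusted p 2.5e-05) in the knockout.

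HIST4H4 (chr12:14767999-14771131, minus strand), the member outside the clusters of chromosomes 1 and 6, was at 27.7, 27.8 and 29.03 CPM in wild-type DMSO and 42.8, 45.1 and 39.7 CPM in wild-type JQ1. The knockout values were 22.4, 22.3 and 19.4 CPM in DMSO and 35.9, 34.0 and 31.1 CPM in JQ1. The JQ1 and DMSO groups did not overlap within a genotype, and the knockout lay below the wild type within a treatment. With JQ1 it rose by 0.59 (SE 0.08, adjusted p 3.71e-05) and 0.65 (SE 0.08, adjusted p 1.66e-05) on the log2 scale in wild type and knockout.

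HIST2H4A (chr1:149832659-149839767, plus strand) took the most counts of any member, at 1364, 1384 and 1419 CPM in wild-type DMSO and 1846, 1851 and 1668 CPM in wild-type JQ1. In the knockout it was at 1362, 1425 and 1314 CPM in DMSO and 1776, 1560 and 1803 CPM in JQ1. Again the groups did not overlap. Its log2 fold changes were 0.37 and 0.33 (SE 0.06 each, adjusted p 0.000287 and 0.000646). The copy with the same coding sequence, HIST2H4B, was at 2.66 to 4.08 CPM in wild-type DMSO and 8.61 to 13.3 CPM in wild-type JQ1, with log2 fold changes of 1.74 (SE 0.19) and 1.88 (SE 0.18) in wild type and knockout. These HIST2H4B values rest on reads that had to be divided between the copies. HIST1H4C rose by 0.33 and 0.49, HIST1H4D by 0.35 and 0.37, and HIST1H4B by 0.35 in the knockout (adjusted p 0.00332), with 0.19 in wild type (adjusted p 0.0783). HIST1H4A, HIST1H4E, HIST1H4F and HIST1H4J passed in neither genotype.

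**Figure D2:**
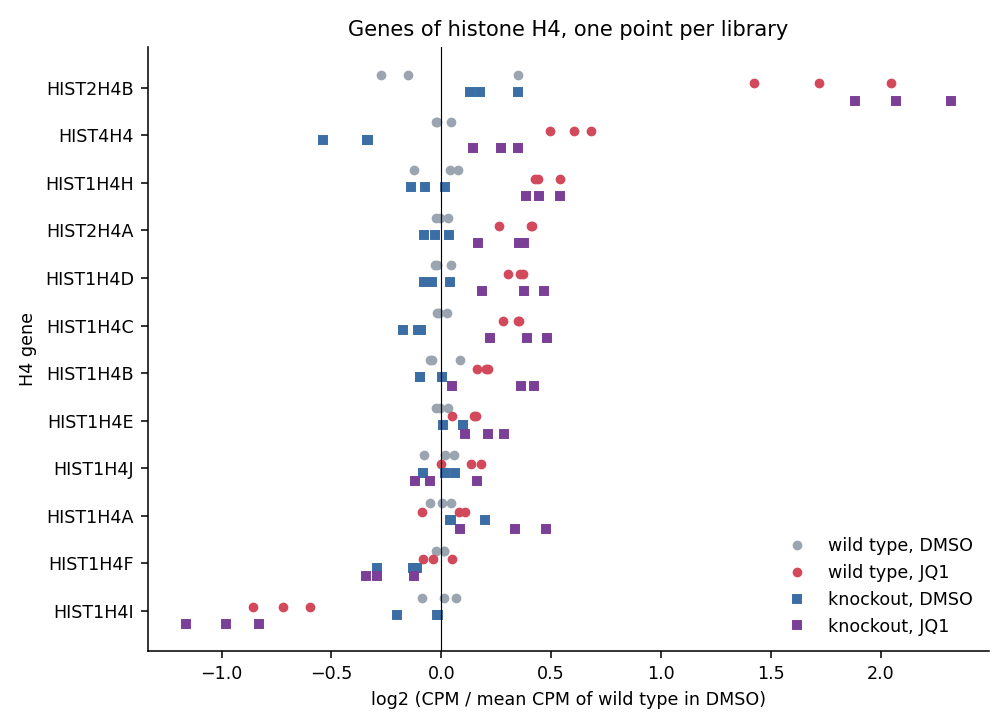
For each of the 12 tested H4 genes, the log2 ratio of CPM to the wild-type DMSO mean (horizontal axis) is shown with one point per library, coloured by group. HIST1H4I is the gene whose 6 JQ1 points all lie below its DMSO points, while HIST2H4B, HIST4H4, HIST1H4H, HIST2H4A, HIST1H4D and HIST1H4C have all JQ1 points of a genotype above the DMSO points of that genotype.

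Among H3 genes, whose product pairs with H4, 4 of 13 rose in each genotype (30.8%) and 0 fell, beside medians of 0.13 and 0.155. Of all tested genes 16.9% rose and 16.2% fell in wild type, and 16.7% and 17.8% in the knockout. HIST1H3A rose by 0.21 and 0.26 on the log2 scale and HIST2H3A and HIST2H3C by 0.23 and 0.23 each. With library totals alone none of these calls held (adjusted p 0.136 to 0.374). The wild-type call of HIST1H3A was also lost without replicate 2 or 3 of the DMSO group or replicate 1 or 2 of the JQ1 group (0.0755 to 0.116), and that of HIST2H3A and HIST2H3C without replicate 1 or 2 of either (0.0835 to 0.116). In the knockout HIST1H3A lost the call without DMSO replicate 3 (0.0545), and the HIST2H3 pair without DMSO replicate 2 or 3 or JQ1 replicate 1 or 3 (0.0511 to 0.113). HIST2H3DP1, a pseudogene at 2.34 to 2.89 CPM in wild-type DMSO and 4.46 to 6.01 CPM in wild-type JQ1, rose by 0.90 in wild type (SE 0.16, adjusted p 0.000472) and was at 0.37 in the knockout (SE 0.17, adjusted p 0.104). HIST1H3J was at 0.10 in wild type (adjusted p 0.236) and rose by 0.19 in the knockout, where the call was lost under 7 of 20 alternatives, among them without DMSO replicate 3 (0.0612) or JQ1 replicate 1 (0.0717). The most abundant HIST1H3 gene, HIST1H3B, was at 0.01 (SE 0.05) and 0.12 (SE 0.05), short of the threshold in both.

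Of 16 tested H2A genes, 5 rose and 2 fell in each genotype (31.2% and 12.5%). Of all tested genes 16.9% rose and 16.2% fell in wild type, and 16.7% and 17.8% in the knockout. The share of H2A genes that fell was thus below that of all genes. HIST1H2AL (chr6:27865355-27865747, plus strand) was at 34.7, 39.6 and 36.5 CPM in wild-type DMSO and 23.6, 26.1 and 21.1 CPM in wild-type JQ1. Knockout libraries were at 33.2, 34.2 and 31.7 CPM in DMSO and 19.4, 21.5 and 19.9 CPM in JQ1. All 6 JQ1 libraries lay below all 6 DMSO libraries. It fell by 0.65 (SE 0.08, adjusted p 3.01e-05) in wild type and by 0.70 (SE 0.09, adjusted p 1.42e-05) in the knockout, on the log2 scale. The HIST1H2BN model (chr6:27837760-27865798) covers this gene on the same strand, so reads of the longer transcript can fall on it; HIST1H2BN itself was at 0.02 (SE 0.08) and -0.16 (SE 0.08), below the threshold in both. HIST1H2AL encodes the same protein as HIST1H2AG, HIST1H2AI, HIST1H2AK and HIST1H2AM, of which HIST1H2AI rose by 0.25 and 0.26, a call lost in wild type with library totals alone (adjusted p 0.0831). HIST1H2AB fell by 0.31 (adjusted p 0.0024) in wild type and by 0.21 (adjusted p 0.0243) in the knockout. The knockout call was lost in a fit of those groups alone (0.0619) and without replicate 1 or 2 of its DMSO group (0.107 and 0.0557) or replicate 2 or 3 of its JQ1 group (0.0519 and 0.0567).

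HIST3H2A (chr1:228456979-228457873, minus strand) was the H2A gene with the largest rise. It was at 51.6, 50.5 and 54.2 CPM in wild-type DMSO and 72.6, 74.7 and 65.1 CPM in wild-type JQ1. The knockout values were 34.6, 35.8 and 35.9 CPM in DMSO and 50.2, 43.2 and 61.5 CPM in JQ1. The groups were separate within each genotype, and knockout JQ1 overlapped wild-type DMSO. It rose by 0.44 (SE 0.10, adjusted p 0.003) and 0.55 (SE 0.10, adjusted p 0.000668). HIST2H2AB and HIST1H2AH rose in both genotypes by 0.27 to 0.32, where HIST1H2AH lost the wild-type call with library totals alone (adjusted p 0.0695), and HIST1H2AC by 0.31 in wild type, with 0.15 in the knockout (adjusted p 0.122).

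H2B genes, whose products dimerize with H2A, were called higher for 7 and lower for 1 of 21 in wild type, and higher for 3 and lower for 2 in the knockout. The wild-type shares were 33.3% higher and 4.76% lower, beside 16.9% and 16.2% of all tested genes. The knockout shares, 14.3% higher and 9.52% lower, were below the 16.7% and 17.8% of all tested genes. The called rises past 0.6 on the log2 scale belong to annotated pseudogenes. HIST2H2BA (chr1:121108210-121117257, minus strand) was at 11.6, 12.7 and 12.2 CPM in wild-type DMSO and 18.03, 20.4 and 18.8 CPM in wild-type JQ1. In the knockout it was at 7.66, 7.31 and 6.71 CPM in DMSO and 11.4, 13.3 and 12.5 CPM in JQ1. JQ1 libraries were higher than DMSO libraries of the same genotype throughout, with log2 fold changes of 0.65 (SE 0.09, adjusted p 5.26e-05) and 0.77 (SE 0.09, adjusted p 1.64e-05). HIST2H2BC, at 3.85 to 5.14 CPM in wild-type DMSO, rose by 0.995 and 0.66. Of coding H2B genes, HIST1H2BC rose by 0.32 in wild type (adjusted p 0.000734) and was at 0.16 in the knockout (0.0535), and HIST1H2BG rose by 0.247 and 0.245, calls lost with library totals alone (0.232 and 0.184), in wild type without DMSO replicate 1 (0.054) or JQ1 replicate 2 (0.0688) and in the knockout without JQ1 replicate 1 (0.0661). HIST1H2BM fell by 0.27 in wild type, with overlapping groups, and the call was lost under 8 of 20 alternatives, among them without replicate 1 or 2 of wild-type DMSO, replicate 2 or 3 of wild-type JQ1, knockout DMSO replicate 3 or knockout JQ1 replicate 2 (0.0544 to 0.184). HIST2H2BE fell by 0.19 in the knockout (SE 0.05, adjusted p 0.0103) and was at 0.04 in wild type (SE 0.05, adjusted p 0.589).

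Linker histone H1 binds where DNA enters and leaves the nucleosome. Of the 5 tested H1 genes, HIST1H1D fell in both genotypes, from 852, 843 and 835 CPM in wild-type DMSO to 642, 721 and 650 CPM in wild-type JQ1, and from 789, 722 and 690 CPM in knockout DMSO to 614, 569 and 602 CPM in knockout JQ1. The groups did not overlap. The log2 change was -0.33 (SE 0.06, adjusted p 0.000598) and -0.30 (SE 0.06, adjusted p 0.00104). HIST1H1A, the least abundant of the 5, rose by 0.31 (adjusted p 0.0127) and 0.40 (adjusted p 0.00319). Its wild-type call was lost with library totals alone (0.132) and without replicate 1 of the DMSO group (0.0652) or replicate 2 of the JQ1 group (0.0605). HIST1H1B rose in the knockout by 0.22, a call lost with library totals alone (0.175), in a fit of the knockout groups alone (0.071) and without DMSO replicate 3 (0.0699). The abundant HIST1H1C and HIST1H1E were at -0.02 and 0.12 in wild type and -0.10 and 0.12 in the knockout, with no call.

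**Figure D3:**
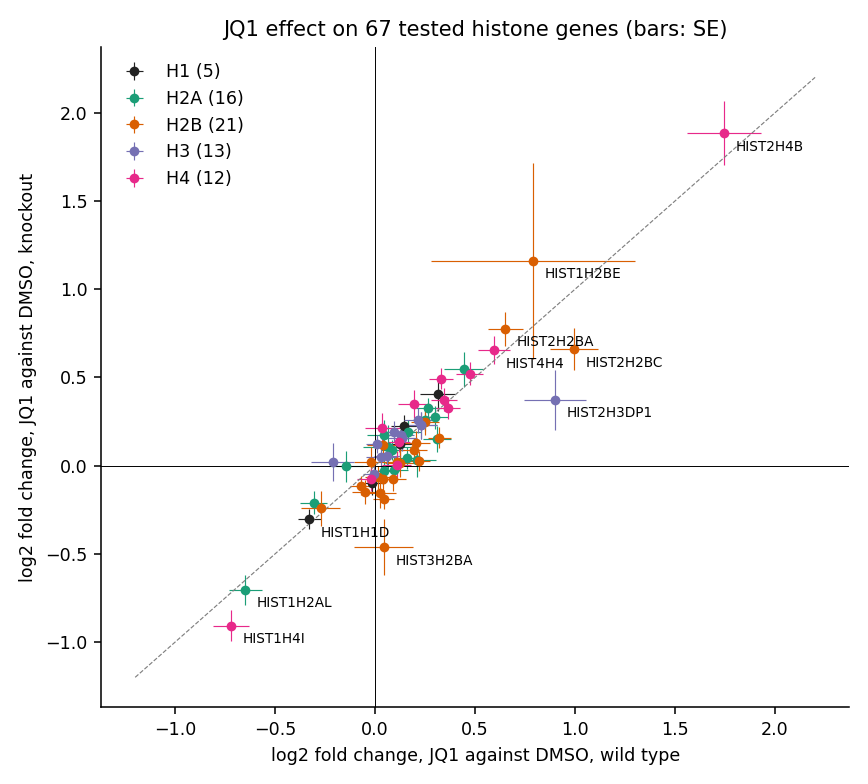
Each point is one of the 67 tested members, with its JQ1 log2 fold change in wild-type cells (horizontal) and in knockout cells (vertical), SE bars and a dashed line of equality, coloured by histone class. HIST1H4I and HIST1H2AL lie apart at the lower left and HIST2H4B at the upper right, and most other members lie within 0.5 of 0 in both.

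The JQ1 contrasts of the genotypes share no libraries. Of the members that rose, 17 were called in both, which is 73.9% of the 23 in wild type and 81.0% of the 21 in the knockout. Of those that fell, 4 were called in both (HIST1H4I, HIST1H2AL, HIST1H1D and HIST1H2AB), which is 80.0% of 5 and 66.7% of 6. No member was called in opposite directions. Across the 67 members Pearson's r of the log2 fold changes was 0.919, as a description across genes that are not independent and that come from 1 fit. HIST2H4B, the highest in both genotypes, enters r with values from divided reads. Neither the shares nor r were computed over all tested genes, so they do not show agreement particular to the members.

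The interaction of genotype and JQ1 was called for no member in either direction (edgeR), where 0.0323% of all tested genes were higher and 0.101% lower. At an unadjusted p under 0.05 there were 0 members higher and 4 lower. Counts at an unadjusted p were not made over all tested genes, so they have no share to be set against. DESeq2 and limma also called none, with 0 higher and 2 lower, and 0 higher and 4 lower, at that unadjusted p. Among the 47 members at 100 CPM or more the interaction ran from -0.23 (HIST2H2BE, SE 0.07) to 0.17 (HIST1H4C, SE 0.09), and the median SE over all 67 was 0.10. By class the median was 0.03 for H1, 0.01 for H2A, -0.10 for H2B, 0.02 for H3 and 0.04 for H4, with 5 of 21 H2B genes above 0.

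Loss of MAPKAPK2 was accompanied by lower histone mRNA for a minority of members. In DMSO 8 of 67 members were lower in the knockout and none was higher, where 4.44% of all tested genes were lower and 3.47% higher. In JQ1 15 members were lower and none was higher, against 5.56% lower and 3.01% higher. At an unadjusted p under 0.05 there were 1 higher and 24 lower in DMSO, and 2 higher and 28 lower in JQ1 (edgeR). These were not counted over all tested genes. DESeq2 called 0 and 1 higher at the adjusted threshold (HIST1H4A, named after its values were seen). The median log2 fold change of the members was -0.12 in DMSO and -0.13 in JQ1, against -0.005 and -0.002 over all tested genes. Of the 62 tested coding members, 7 were lower in DMSO and 12 in JQ1 (11.3% and 19.4%). Of the 5 annotated pseudogenes, 1 was lower in DMSO and 3 in JQ1. With library totals alone 16 and 24 members were lower. Of all 21698 tested genes 1158 were then lower and 516 higher in DMSO, and 1359 lower and 496 higher in JQ1. The medians of all tested genes were then -0.05 and -0.035, and those of the members -0.16 in both treatments. The share of abundant noncoding RNA did not overlap between the genotypes in DMSO, and RN7SL2 was higher in the knockout there (log2 0.34, SE 0.09, adjusted p 0.0318); its part in the knockout values was not tested. The number lower in DMSO became 17 when knockout JQ1 replicate 3 was left out, which is not in that contrast and enters through the shared estimate of spread, and 5 without knockout DMSO replicate 2 or 3 or wild-type DMSO replicate 2 or 3. The number lower in JQ1 was 20 without knockout JQ1 replicate 3 and 6 without wild-type JQ1 replicate 2. Of all tested genes, 1362 were lower in DMSO and 1476 in JQ1 without knockout JQ1 replicate 3, beside 964 and 1207 with all libraries. Without wild-type JQ1 replicate 2, 812 were lower in JQ1.

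HIST1H1A (chr6:26017085-26017732, minus strand) was the member lowest in the knockout in DMSO. It was at 26.1, 31.6 and 27.8 CPM in wild-type DMSO and 16.2, 17.96 and 14.7 CPM in knockout DMSO. In JQ1 it was at 34.8, 37.3 and 33.9 CPM in wild type and 21.1, 22.8 and 20.8 CPM in the knockout. All 6 knockout libraries lay below all 6 wild-type libraries. The log2 change was -0.80 in DMSO (SE 0.09, adjusted p 4.48e-05) and -0.71 in JQ1 (SE 0.09, adjusted p 0.000111), and it held under all 20 alternatives. HIST2H2BA was lower by -0.75 (SE 0.09, adjusted p 0.000127) and -0.62 (SE 0.09, adjusted p 0.000375), from the values given above, also under all alternatives.

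The HIST3 cluster lies on chromosome 1 distal to MAPKAPK2 (chr1:206684944-206734283), and its 3 tested members were all lower in JQ1. The divergent pair of HIST3H2A and HIST3H2BB was lower in both treatments. HIST3H2A was lower by -0.56 (SE 0.10, adjusted p 0.00248) in DMSO and -0.45 (SE 0.10, adjusted p 0.00935) in JQ1. HIST3H2BB (chr1:228458107-228460470, plus strand) was at 98.6, 108 and 103 CPM in wild-type DMSO and 80.1, 82.1 and 74.95 CPM in knockout DMSO, and at 118, 125 and 115 CPM in wild-type JQ1 and 88.0, 78.5 and 92.4 CPM in knockout JQ1. The genotypes did not overlap in either treatment, with log2 changes of -0.39 (SE 0.07, adjusted p 0.00198) and -0.46 (SE 0.07, adjusted p 0.000448). HIST3H2BA, a pseudogene at 1.64 to 3.90 CPM, was at -0.32 in DMSO (adjusted p 0.251) and lower by -0.83 in JQ1 (SE 0.16, adjusted p 0.00335). Of the other 297 tested genes distal to MAPKAPK2, 127 were lower and none higher in DMSO, with a median of -0.39, and 136 were lower and 1 higher in JQ1, with a median of -0.37. For all other tested genes outside the members the medians were -0.002 and 0.001, and 3.89% and 4.95% were lower. The part of chromosomal position in the HIST3 values was not tested, and HIST1H1A, HIST2H2BA and HIST4H4 lie outside that stretch.

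HIST4H4 was lower in the knockout by -0.40 (SE 0.08, adjusted p 0.00517) in DMSO and -0.34 (SE 0.08, adjusted p 0.0129) in JQ1. In JQ1 the calls of HIST3H2A and HIST4H4 were lost in a fit of those groups alone (adjusted p 0.0608 and 0.0666) and without wild-type JQ1 replicate 2 (0.0515 and 0.0746). Of the 8 members lower in DMSO, HIST1H1B, HIST1H2BB and HIST1H3J, at -0.21 to -0.27, lost the call under 4 to 13 of 20 alternatives, each without any of knockout DMSO replicates 2 and 3 and wild-type DMSO replicates 2 and 3, and the other 5 kept it under all.

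By class, H2B held 9 of the 15 members lower in JQ1, of 21 tested, and 3 of the 8 lower in DMSO. These are 42.9% and 14.3% of the class, beside 5.56% and 4.44% of all tested genes. Of the 9, HIST2H2BA and HIST3H2BA are annotated pseudogenes, and HIST3H2BA and HIST3H2BB lie distal to MAPKAPK2. Of the 3, HIST2H2BA is a pseudogene and HIST3H2BB lies distal to MAPKAPK2. The summed H2B level was 3045, 3098 and 3082 CPM in wild-type DMSO and 3011, 2929 and 2798 CPM in knockout DMSO. In JQ1 it was 3244, 3416 and 3172 CPM in wild type and 3079, 2904 and 2726 CPM in the knockout. The genotypes did not overlap in either treatment, with log2 ratios of -0.08 and -0.175. HIST1H2BB was lower by -0.26 (adjusted p 0.0227) in DMSO and -0.335 (adjusted p 0.00399) in JQ1, HIST1H2BJ by -0.325 and HIST1H2BL by -0.28 in JQ1. The call of HIST1H2BJ was lost without wild-type JQ1 replicate 2 (0.0505). HIST1H2BC, HIST1H2BI and HIST1H2BO, at -0.21 to -0.29 in JQ1, lost the call under 6 to 15 of 20 alternatives, all 3 of them without knockout JQ1 replicate 2 or wild-type JQ1 replicate 1 or 2. The H4 sums were at log2 ratios of -0.04 in either treatment, and the genotypes overlapped.

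**Figure D4:**
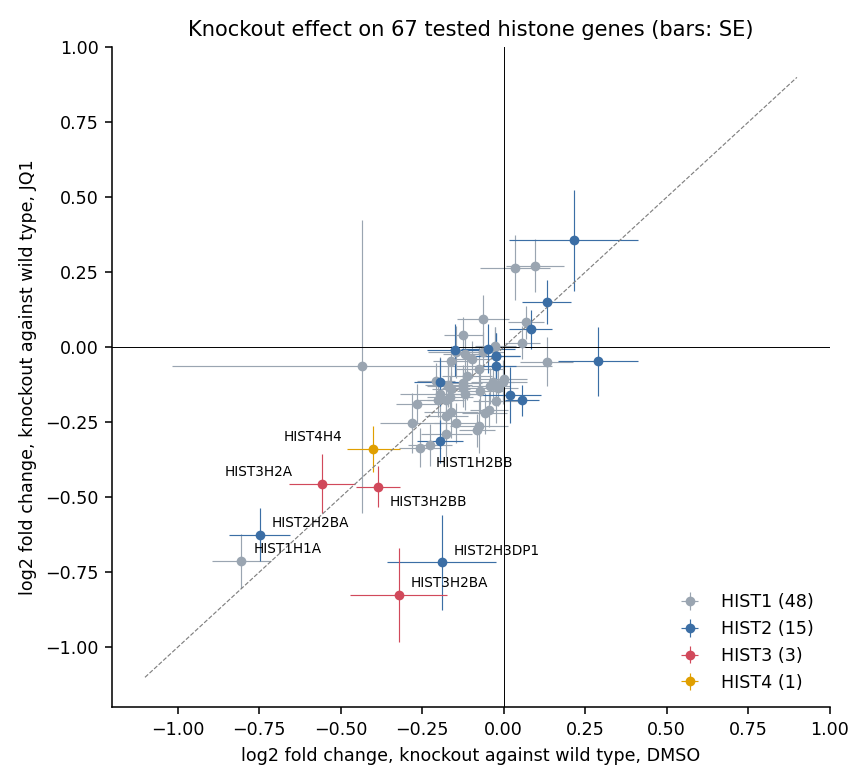
Each point is one of the 67 tested members, with its log2 fold change of knockout against wild type in DMSO (horizontal) and in JQ1 (vertical), SE bars and a dashed line of equality, coloured by cluster. HIST1H1A and HIST2H2BA lie lowest along the dashed line, the 3 HIST3 members lie below 0 on both axes, and the HIST1 members other than HIST1H1A lie between -0.335 and 0.27 in JQ1.

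Of the 8 members lower in DMSO, 6 were also lower in JQ1 (HIST1H1A, HIST1H2BB, HIST2H2BA, HIST3H2A, HIST3H2BB and HIST4H4), which is 75% of the 8 and 40.0% of the 15. These contrasts share no libraries, and r across the 67 members was 0.726, as a description. The same shares and r were not computed over all tested genes.

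H2A and H2B genes often stand head to head and share the bases between them. There were 12 such pairs, with 304 to 382 bases between the reading frames, of which 11 had both genes tested. With JQ1 the partners had the same sign in 8 of 11 pairs in wild type and 6 of 11 in the knockout, and the median absolute difference between partners was 0.117 and 0.275 on the log2 scale. In the knockout contrasts the signs were the same in 8 of 11 pairs in DMSO and 9 of 11 in JQ1, with median differences of 0.16 and 0.09. Of the 67 tested members, 54 were above 0 with JQ1 in wild type and 48 in the knockout. In each knockout contrast 11 were above 0. With TMM most members thus share a sign whether or not they are partners. Of all 21698 tested genes, 10076 and 10776 were above 0 with JQ1 in wild type and knockout. In the knockout contrasts 10641 were above 0 in DMSO and 10789 in JQ1. With library totals alone the members' medians with JQ1 were -0.008 in wild type and 0.007 in the knockout. Their signs with JQ1 thus depend on the scaling. HIST1H2AC and HIST1H2BC, 329 bases apart, were at 0.31 and 0.32 with JQ1 in wild type. HIST1H2AJ and HIST1H2BM, 304 bases apart, were at 0.09 and -0.27. A shared intergenic stretch thus went with like values in the first pair and with unlike values in the second.

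**Figure D5:**
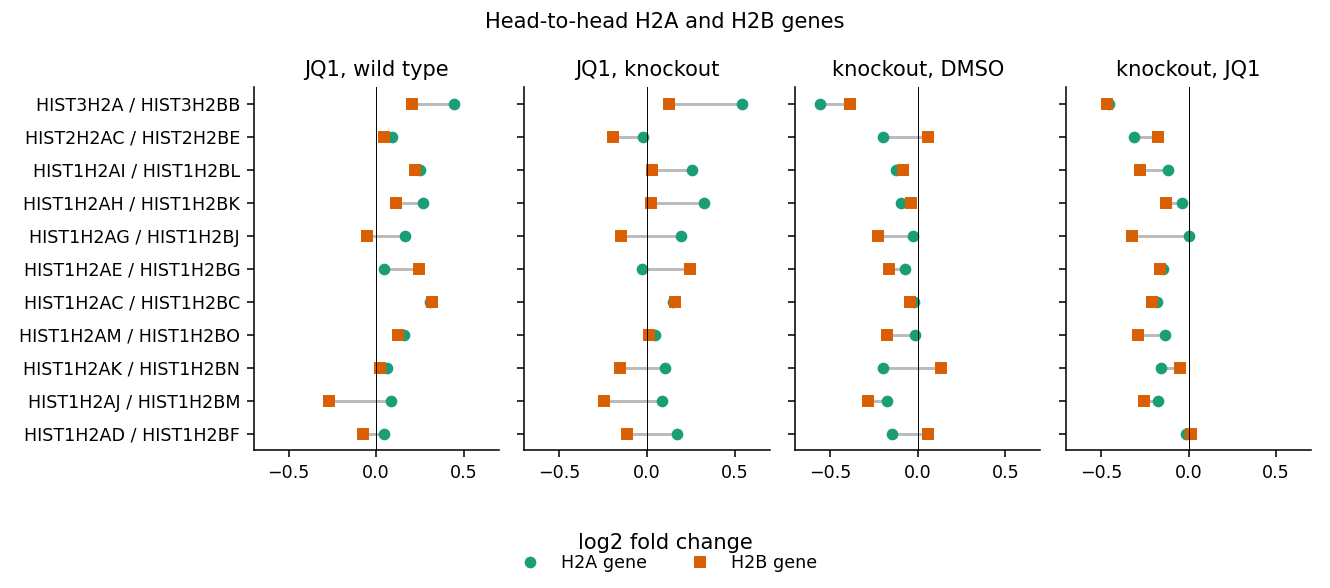
For 11 head-to-head pairs, the log2 fold change of the H2A gene (circle) and of the H2B gene (square) is plotted on the horizontal axis, with a grey line joining the partners, in 1 panel for each of the 4 contrasts. The H2A gene lies to the right of its H2B partner in most pairs with JQ1 in the knockout, by up to 0.42.

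Other genes of histone supply were counted from lists of known function. Of 28 tested genes of histone mRNA production and turnover, 6 rose and 5 fell with JQ1 in wild type (median 0.02) and 5 rose and 7 fell in the knockout (median 0.02). These are 21.4% and 17.9%, and 17.9% and 25% of the list, near the 16.9% and 16.2%, and 16.7% and 17.8%, of all tested genes. SLBP, which binds the stem-loop, rose from 63.8 ± 3.4 to 88.5 ± 3.41 CPM in wild type (log2 0.47, SE 0.07, adjusted p 0.000134) and from 63.9 ± 2.36 to 95.3 ± 9.26 CPM in the knockout (0.58, SE 0.07, adjusted p 1.93e-05). CDK2, the kinase that activates NPAT, rose by 0.51 and 0.53, and NPAT itself was at 0.07 (SE 0.10, adjusted p 0.632) and 0.01 (SE 0.10, adjusted p 0.97). LSM11, a subunit of the U7 particle, fell by 0.54 and 0.51, and POU2F1, which binds the octamer, fell by 0.43 and 0.57. In the knockout contrasts LSM10 was higher by 0.28 in DMSO and POU2F1 lower by -0.37 in JQ1, and no other gene of this list was called.

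Histone chaperones carry new histones to DNA, and 6 of 19 rose and 3 fell in wild type, and 7 rose and 2 fell in the knockout (31.6% and 15.8%, and 36.8% and 10.5% of the list). ASF1B rose by 0.55 and 0.74. NASP, which holds the soluble pool of H3 and H4, rose by 0.24 and 0.38, and was 0.34 higher in the knockout than in wild type in JQ1 (SE 0.06, adjusted p 0.0019). Of 32 genes of S phase and replication, 8 rose and 7 fell in wild type (median -0.01), and 12 rose and 6 fell in the knockout (median 0.11). These are 25% and 21.9%, and 37.5% and 18.8% of the list, beside the same shares of all tested genes, so the falls in the knockout were near those of all genes. TK1 rose by 0.62 and 0.63 and PCNA by 0.45 and 0.52, while PRIM1 fell by 0.43 and 0.33. MCM4 was lower in the knockout by -0.61 in DMSO and -0.54 in JQ1. The list as a whole did not go that way. In DMSO 1 of the 32 was higher and 2 lower in the knockout (3.12% and 6.25%, median -0.005). In JQ1 3 were higher and 1 lower (9.38% and 3.12%, median 0.11), with 24 above 0. All tested genes were at 3.47% higher and 4.44% lower in DMSO, and 3.01% and 5.56% in JQ1.

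Of 11 tested replacement histones, 8 rose and 1 fell with JQ1 in wild type (median 0.52) and 9 rose and 1 fell in the knockout (median 0.53), beside medians of 0.12 for the members. These are 72.7% and 9.09%, and 81.8% and 9.09% of the list, beside 16.9% and 16.2%, and 16.7% and 17.8%, of all tested genes. H1F0, the H1 variant of differentiated cells, rose from 201 ± 4.10 to 453 ± 8.68 CPM in wild type and from 209 ± 1.29 to 459 ± 42.4 CPM in the knockout, by 1.17 and 1.135 on the log2 scale (SE 0.06 each, adjusted p 3.53e-09 and 3.44e-09). H2AFV rose by 0.63 and 0.80, H2AFX by 0.84 and 0.715 and H3F3B by 0.52 and 0.59. H3F3A was lower in the knockout than in wild type by -0.26 in DMSO and -0.23 in JQ1. Of the 11, 0 were higher and 1 lower in the knockout in DMSO (median 0.005), and 1 higher and 1 lower in JQ1 (median -0.07). Chromosomal position relative to MAPKAPK2 was not examined for the genes of this list. Of the 8 members for which polyadenylated mRNA has been described, 3 rose in wild type (HIST1H4H, HIST1H2BC and HIST1H2AC) and 0 fell (37.5% and 0%, median 0.08). In the knockout HIST1H4H rose and HIST2H2BE fell (12.5% each, median -0.03), below the shares of all tested genes.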

How the data were processed

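Columns were assigned to the 12 samples by name, and groups follow the treatment label (DMSO), where the titles say untreated. Per the submitters' processing notes, Trim Galore, cutadapt, FastQC, MultiQC, kallisto, DESeq2 and the build GRCh38.p10 were used, with no versions or roles given. The authors deposited estimated counts per gene symbol and a normalized signal for 32828 genes, in which 70 members have a row. The estimated counts were rounded. Low counts were removed with filterByExpr, which left 21698 genes, and libraries were scaled with TMM (factors 0.926 to 1.06). All 12 libraries entered 1 fit with a term per group and edgeR's quasi-likelihood test (edgeR 4.0.16, limma 3.58.1, R 4.3.3), adjusted by Benjamini-Hochberg over all tested genes at 0.05. The procedure was tested on simulated data. The deposited signal entered only alternatives. DESeq2 1.42.0 was another alternative. Sums were compared without a test. SE is the absolute log2 fold change over the root of F. Coordinates and transcripts came from GENCODE 29 by symbol. Whether counting used strand is not given in the sources used here.

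The members and lists were chosen with earlier results of these data known. Named members were the 3 of highest mean CPM per class, up to 5 called rises and 5 called falls per contrast, and all HIST3 and HIST4 members, with up to 3 genes of smallest adjusted p per list and contrast and MAPKAPK2, SLBP, NPAT and H1F0. Other genes are named from counts or classes after their values were seen.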

Additional observations from a re-analysis of the deposited data

How the results depend on the processing

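No member named for a call reversed its direction: of 1050 values of 50 named member and contrast combinations under alternatives, 966 kept their call and 84 kept the direction but lost the call. With library totals alone, members called with JQ1 in wild type were 13 higher and 9 lower, those lower with JQ1 in the knockout were 13, those lower in the knockout were 16 in DMSO and 24 in JQ1, and the summed level was at -0.006 in wild type and -0.010 in the knockout for JQ1. The calls of all tested genes under library totals alone are given above. With only the groups compared in the fit, the counts were 35 higher with JQ1 in wild type, and 17 lower in the knockout in DMSO and 7 in JQ1. Over all tested genes these calls also moved. They were 4762 higher with JQ1 in wild type, and 1308 and 642 lower in the knockout in DMSO and JQ1. With all groups in the fit they were 3665, 964 and 1207. At an adjusted p of 0.01, 3 were lower with JQ1 in the knockout, and 5 and 9 lower in the knockout in DMSO and JQ1. With genes of identical proteins summed, which leaves fewer rows, 14 were higher and 2 lower with JQ1 in wild type and 10 higher and 3 lower in the knockout. Members higher in the knockout in JQ1 numbered 1 with upper quartile scaling, no filter on low counts or DESeq2, and 0 to 1 with each library left out. Leaving out each library gave 16 to 29 higher and 4 to 5 lower with JQ1 in wild type, 15 to 29 higher and 4 to 6 lower in the knockout, and 5 to 17 and 6 to 20 lower in the knockout in DMSO and JQ1. All tested genes were then 2917 to 4353 higher and 2700 to 4045 lower with JQ1 in wild type. In the knockout they were 3011 to 3607 higher and 3247 to 3840 lower with JQ1. Against wild type, 644 to 1362 and 812 to 1476 were lower in the knockout in DMSO and JQ1. The causes were not tested.

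The replicate numbers did not pair the libraries: over 18 same-numbered pairs r of the deviations ran from -0.115 to 0.079, and 2 of 12 libraries correlated best with their own number. With the replicate block, 23 members were higher and 4 lower with JQ1 in wild type, 20 and 6 in the knockout, and 7 and 13 lower in the knockout in DMSO and JQ1.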

Other observations

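Members were also counted by whether their GENCODE model holds coding bases alone or untranslated bases too. With JQ1 in wild type, 6 of 27 tested members of the first kind rose and 4 fell (22.2% and 14.8%, median 0.09). Of the second kind, 14 of 35 rose and 1 fell (40% and 2.86%, median 0.16). Of all tested genes 16.9% rose and 16.2% fell. In the knockout 6 rose and 3 fell of the first kind (22.2% and 11.1%, median 0.09). Of the second, 13 rose and 2 fell (37.1% and 5.71%, median 0.13), where 16.7% of all tested genes rose and 17.8% fell. The first kind was the nearer to the shares of all genes. The difference was not tested.

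HIST2H2AA3 and HIST2H2AA4 share their coding sequence and carry opposite signs with JQ1 in wild type, at -0.15 (SE 0.09) and 0.21 (SE 0.09), neither past the threshold. Summed, the pair was at 0.095 (SE 0.07, adjusted p 0.35, edgeR).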
